A study of Mus musculus with 24 samples.

Results

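The genes described here encode the nuclear subunits of the mitochondrial respiratory chain and of ATP synthase. A member was any protein-coding GENCODE M21 gene whose symbol starts with Ndufa, Ndufb, Ndufc, Ndufs, Ndufv, Uqcr, Cox4 to Cox8 or Atp5, together with Sdha, Sdhb, Sdhc, Sdhd and Cyc1, and assembly factors named Ndufaf were left out. This rule gave 87 genes, and 86 of them were among the 63862 genes listed for the libraries compared. By symbol, 38 belonged to complex I, 4 to complex II, 9 to complex III, 18 to complex IV and 17 to complex V, which is ATP synthase.

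The study sequenced RNA from the mouse lacrimal gland (LG), the gland that makes the watery part of tears, and from lacrimal gland stem cells (LGSCs) grown from it. All animals were C57BL/6. LGSCs came from glands of 6 to 8 week-old mice, were embedded in Matrigel as single cells, and formed spheres in a serum-free medium that held EGF, FGF10, Wnt3A and the kinase inhibitor Y-27632. The groups compared were LGSCs of passage 2 after 5 days (2 libraries), 7 days, 10 days and 14 days of culture (3 each), and whole LG at the embryonic stages E17.5 and E19.5, named by days of gestation, and from adults (3 each). An LGSC library of passage 10, day 7, was a single sample and served only as a reference level. The labels do not say whether replicates were separate animals or cultures, nor whether embryonic glands were pooled, so each p-value measures only the spread between these libraries. In these bulk samples, fewer cells of a type and less RNA per cell cannot be told apart.

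Complex I takes electrons from NADH and complex II takes them from succinate, and both pass them to ubiquinone. Complex III moves them on to cytochrome c, complex IV hands them to oxygen, and complexes I, III and IV pump protons whose return drives ATP synthase. Most subunits are encoded in the nucleus, and a few hydrophobic ones of complexes I, III, IV and V are encoded in mitochondrial DNA. Several complex IV subunits, and Ndufa4, have a second gene that is known for use in muscle, testis or low oxygen. Ndufa4 and its relative Ndufa4l2 are counted under complex I by symbol only.

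Nuclear genes of the chain are known for promoters with sites of the factors NRF1, GABP (an ETS factor) and YY1, so the promoter letters are shown here for 5 members with an NRF1 match before the start. A RefSeq promoter window on GRCm38.p6, from 250 bases before to 50 after the start and the first window listed per gene, was found for 67 of the 86 members and for 17492 protein-coding genes. On either strand, the NRF1 letters, GCGCA followed by any base and then GCGC, were in the windows of 16 members, or 23.9%, against 6.60% of all protein-coding genes. The letters CCGGAAG (ETS) were in 15 members, or 22.4%, against 11.9%, and AAGATGGC (YY1) in 8 members, or 11.9%, against 3.22%. The end of the ETS letters and the start of the YY1 letters can share AAG, and a window with both was counted for each. A match is only a description of the window. The stretches below, printed 5′ to 3′ on the gene's strand, carry the NRF1 letters in capitals with up to 20 bases on each side. Ndufa8 and Ndufs6 encode accessory subunits of complex I, Sdha and Sdhd subunits of complex II, and Cox6a1 the widely used isoform of a complex IV subunit.
Ndufa8, chr2:36049339-36049388, minus strand: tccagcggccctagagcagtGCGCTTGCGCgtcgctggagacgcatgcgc
Ndufs6, chr13:73328469-73328518, minus strand: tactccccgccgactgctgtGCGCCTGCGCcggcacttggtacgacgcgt
Sdha, chr13:74350309-74350358, minus strand: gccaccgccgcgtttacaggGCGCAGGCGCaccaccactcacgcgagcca
Sdhd, chr9:50603899-50603948, minus strand: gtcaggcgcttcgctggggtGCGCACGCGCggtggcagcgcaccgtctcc
Cox6a1, chr5:115349091-115349140, minus strand: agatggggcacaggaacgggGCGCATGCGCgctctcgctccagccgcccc

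Values were deposited as FPKM, fragments scaled to transcript length and to a library total. The steps between low FPKM values gave 6434734 to 9258020 fragments on genes matched to GENCODE M21 in each of the 20 libraries compared. In the passage 10 library they gave 25181804, and rare genes rest on fewer fragments in the 20 libraries. Assembled loci, of which the 20 libraries list 11226 and passage 10 lists 111, add nothing to either total. A library's own fragments are counted in this way below. In 18 of the 20 libraries these fragments were 0.832 to 1.13 times the scale used in the deposited FPKM. In adult LG replicates 1 and 2 they were 2.67 and 2.57 times that scale, and their top 10 genes held 60.4% and 59.6% of fragments, against 31.3% in adult replicate 3 and 5.44% to 8.07% in the other libraries. Adult replicate 3 therefore stood apart from the other adult libraries, and counts of calls and medians of complexes against the adult gland are given with and without it. Acinar marker genes summed to 492 to 1245 FPKM in the adult libraries and to at most 3.21 FPKM in any other library. Among these 6 genes, Bhlha15 was listed at 0 in all 20 libraries. Aqp5 and Ltf had under 0.1 times their passage 10 level, so the sum says little about them. Fibroblast markers summed to 4705 to 5680 FPKM in the embryonic glands, 164 to 323 FPKM in the adult gland and at most 1.41 FPKM in LGSCs.

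Not every member could be followed. Of the 86 members, 48 had a mean over the 20 libraries of at least 0.5 FPKM and at least 0.5 times their passage 10 level, or were low in passage 10 as well, and these are called measured. Another 30 members had less than 0.1 times their passage 10 level, although that level was 4.31 to 189 FPKM, with a median of 48.4 FPKM. The core complex IV gene Cox4i1, for example, was at 189 FPKM in the passage 10 library and at 1.07 to 3.62 FPKM in the 20 libraries. Cyc1, the cytochrome c1 of complex III, was at 97.8 FPKM in passage 10 and listed at 0 in all 20 libraries, as were Ndufa13, Ndufb11 and Ndufb6. Sdhc, a membrane anchor of complex II, was at 33.0 FPKM in passage 10 and at most 0.192 FPKM in the 20 libraries. The supercomplex gene Cox7a2l went from 148 FPKM to at most 0.453 FPKM.

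A further 5 complex I genes lay between those limits. Ndufa12 had 0.173, Ndufa3 0.22, Ndufb5 0.241, Ndufs8 0.246 and Ndufa7 0.344 times the passage 10 level. On the near side of the lower limit, Ndufs3 had 0.0996 and Ndufc1 0.098 times that level, and the lowest measured member compared in this way was Ndufv1 with 0.858. The last 3 members, Cox6a2, Cox7b2 and Cox8c, averaged under 0.5 FPKM in the 20 libraries and were at 0 in passage 10. They encode the muscle isoform of subunit 6a and testis isoforms of subunits 7b and 8. Cox7b2 was listed at 0 in every library.

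Many other genes were as low. Of 2714 protein-coding genes with at least 20 FPKM in passage 10, 50.5% had less than 0.1 times that level in the 20 libraries, against 39.1% of the 64 members above the same level. Epcam, a gene of epithelial cells, was listed at 0 in all 20 libraries and at 261 FPKM in passage 10. The 20 libraries were quantified on a list with 11226 assembled loci, and the passage 10 library on a list with 111, and the part of the gene list in the low values was not tested. The 9 gland libraries, which were never passaged, were as low as the spheres, with Cox4i1 at 1.07 to 2.88 FPKM and Cyc1 listed at 0 in each. Members under 0.1 times the passage 10 level are therefore named as such wherever their values are given, and the levels below rest on the 48 measured members.

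**Figure D1:**
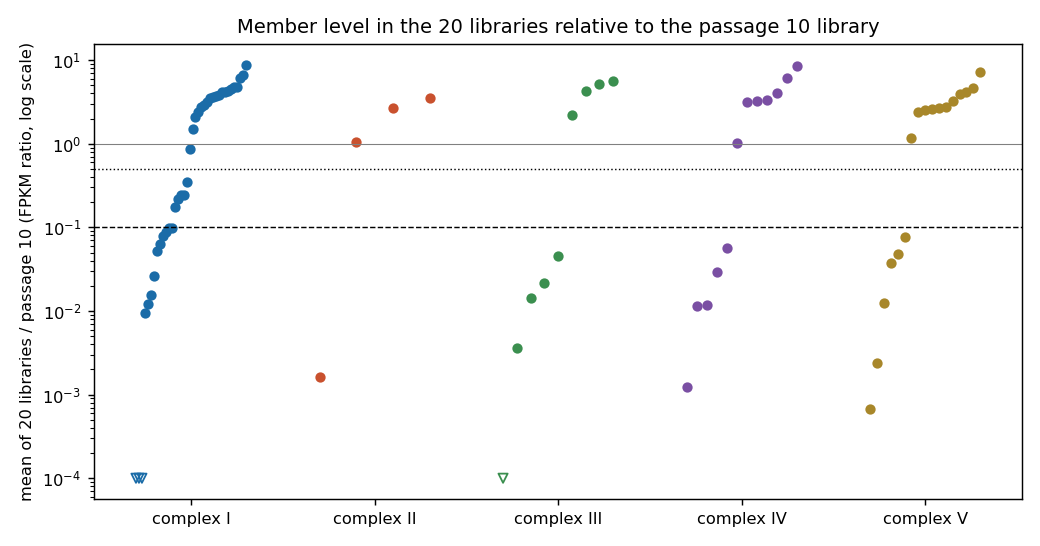
Each point is a member with at least 1 FPKM in the passage 10 library, and the vertical axis is its mean FPKM over the 20 libraries divided by its passage 10 FPKM (log scale). Open triangles mark the 4 members listed at 0 in all 20 libraries, drawn at the bottom, the dashed line is at 0.1 and the dotted line at 0.5. The solid line is at 1. Every complex has at least 1 member below 0.1 and several near or above 1.

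Among the measured members, levels per length covered a wide range. Cox6a1 had the highest mean over the 20 libraries with 1485 FPKM, followed by Cox8a with 1149, the ATP synthase α subunit gene Atp5a1 with 732 and the catalytic β subunit gene Atp5b with 719 FPKM. Of the promoters shown above, Ndufa8 had 298 and Ndufs6 250 FPKM. In complex II, Sdhd was at 176, Sdhb at 96.1 and Sdha at 42.4 FPKM. The tail held Cox7a1 at 8.72, Ndufb2 at 1.64, Cox8b at 0.638 and Cox4i2 at 0.556 FPKM. In the 44 measured members with a mean of at least 10 FPKM, the spread between replicates was smallest at E17.5 and largest in the adult gland, with median coefficients of variation of 6.26% and 31.8%.

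The summed level of the measured members ran from 10911 to 11867 FPKM at E17.5 and from 11990 to 16255 FPKM at E19.5. In the adult gland it was 14972 and 15688 FPKM in replicates 2 and 1, and 8665 FPKM in replicate 3. LGSCs of day 5 held 12966 and 14975 FPKM. Spheres of day 7 held 10433 to 11997, those of day 10 held 9147 to 13783 and those of day 14 held 8959 to 11068 FPKM. The adult libraries thus enclosed the range of both embryonic stages apart from the highest E19.5 library.

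**Figure D2:**
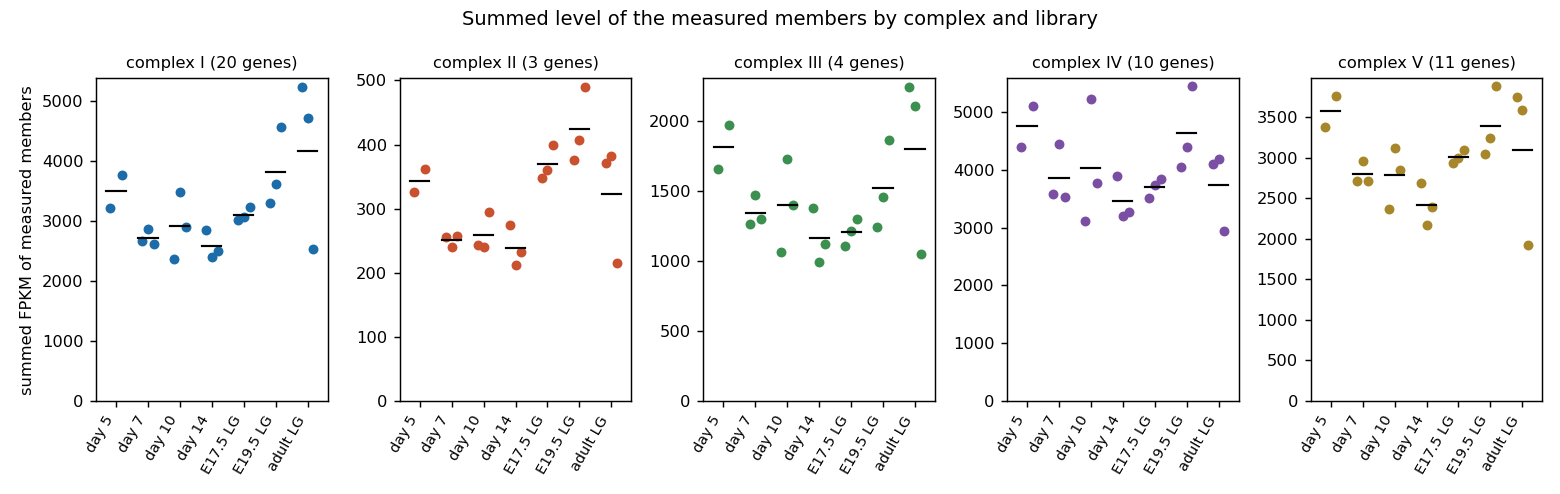
Each point is one library, the vertical axis is the summed FPKM of the measured members of a complex, groups are on the horizontal axis and bars are group means. In all 5 complexes adult replicate 3 lies below the other adult libraries, and the day 5 LGSC mean lies above the day 14 mean.

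The embryonic glands were compared with the adult gland to ask how the chain differs between a developing and a secreting gland. In 72 members that passed the filter of a mean of 0.5 FPKM, limma on log2(FPKM + 1) called 6 higher and 8 lower at E17.5 at a Benjamini-Hochberg adjusted p under 0.05. These are 8.33% and 11.1% of the members tested, against 29.1% and 24.9% of all 18578 genes tested. At E19.5 it called 10 higher and 6 lower, or 13.9% and 8.33%, against 30.3% and 23.9% of all genes. The members' median log2 difference was -0.08 at E17.5 and 0.10 at E19.5, beside 0.05 and 0.09 over all genes. Among the 48 measured members, 4 were called higher and 4 lower at E17.5, or 8.33% each, with a median of -0.03. At E19.5 8 of these were higher and none lower, or 16.7% and 0%, with a median of 0.19. The 6 lower calls at E19.5 were thus all of genes below 0.5 times their passage 10 level. The same adult libraries serve both comparisons.

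Of the members called higher in the embryonic glands at both stages, 3 are alternative isoform genes that were low in the adult gland. Ndufa4l2, a relative of Ndufa4 known as a hypoxia-induced gene, was at 3.03, 4.90 and 10.4 FPKM in the adult libraries. It was at 94.4, 57.2 and 56.8 FPKM at E17.5 and at 91.1, 94.6 and 88.5 FPKM at E19.5. The log2 difference was 3.40 ± 0.36 (SE, adjusted p = 8.97e-05, limma) at E17.5 and 3.83 ± 0.36 (adjusted p = 5.34e-05) at E19.5. No embryonic library came near the adult range.

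Cox6b2, the isoform of complex IV subunit 6b known from testis, was at 2.24, 4.27 and 5.44 FPKM in the adult gland. It was at 38.9, 34.4 and 35.1 FPKM at E17.5 and at 40.0, 41.8 and 38.9 FPKM at E19.5. The log2 difference was 2.95 ± 0.23 (SE, adjusted p = 1.85e-05, limma) and 3.10 ± 0.23 (adjusted p = 1.63e-05), with no overlap. The common isoform Cox6b1 was far more abundant, at 462 to 474 FPKM in adult replicates 1 and 2 and 302 FPKM in replicate 3. It was called at E19.5, with a log2 difference of 0.79 ± 0.24, and not at E17.5, with 0.43 ± 0.24, and the 2 stages were not called different from each other. As a share of Cox6b1 plus Cox6b2, a measure that does not depend on the library scale, Cox6b2 made up 0.472% to 1.77% in the adult gland, 5.48% to 7.13% at E17.5 and 4.12% to 6.78% at E19.5.

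Cox7a1, the heart and muscle isoform of subunit 7a, was at 1.55, 3.54 and 7.60 FPKM in the adult gland, at 10.1, 11.2 and 14.0 FPKM at E17.5 and at 16.9, 21.4 and 20.5 FPKM at E19.5. Its log2 difference was 1.45 ± 0.38 (SE, adjusted p = 0.0114, limma) at E17.5 and 2.15 ± 0.38 (adjusted p = 0.00167) at E19.5. Against adult replicate 3 alone the E17.5 difference fell to 0.56 and was not called. The summed level of 12 skeletal muscle marker genes was 5.07 to 16.3 FPKM at E17.5, 3.96 to 6.59 at E19.5 and 0.808 to 2.82 FPKM in the adult gland, with Acta1 and Pvalb listed at 0 throughout. The other muscle isoforms stayed near the limit of detection, Cox8b at 0 to 2.31 FPKM and Cox6a2 at 0 to 1.53 FPKM over all 20 libraries. The part of muscle in the Cox7a1 difference was not tested.

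The subunit genes of complex II differed from each other. Sdhd, the small membrane anchor, was at 135, 152 and 97.5 FPKM in the adult gland, at 203, 209 and 236 FPKM at E17.5 and at 219, 238 and 285 FPKM at E19.5, without overlap. Its log2 difference was 0.77 ± 0.19 (SE, adjusted p = 0.00949, limma) at E17.5 and 0.96 ± 0.19 (adjusted p = 0.0033) at E19.5. The iron-sulfur subunit gene Sdhb and the flavoprotein gene Sdha were not called in either comparison. Sdhb was at 172, 166 and 79.5 FPKM and Sdha at 64.8, 63.8 and 38.3 FPKM in the adult gland.

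Within the sum of Sdha, Sdhb and Sdhd, the Sdhd share was 36.3%, 39.8% and 45.3% in the adult libraries. It was 58.0% to 59.2% at E17.5 and 58.3% in each of the 3 E19.5 libraries. In LGSCs it ran from 56.3% to 62.6% over all 11 libraries, so every embryonic and every cultured library lay above every adult one. The Sdhb share was 36.9% to 46.3% in the adult gland and 24.6% to 31.2% in all other libraries. An exact permutation test of 3 against 3 libraries cannot give a two-sided p below 0.10, and none is given. Sdhc, the partner anchor, was among the members with under 0.1 times the passage 10 level and is not part of these shares.

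**Figure D3:**
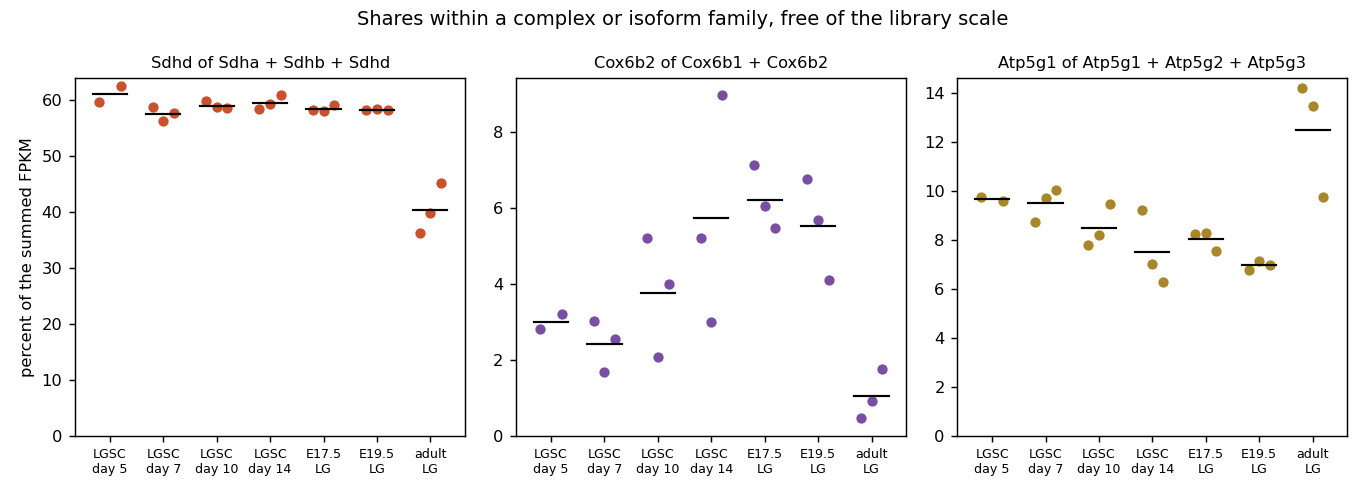
Each point is one library, the vertical axis is the percentage of the summed FPKM of the named genes and bars are group means. The Sdhd share lies between 36.3% and 45.3% in the adult gland and above 56% in all other libraries, and the group means of the Cox6b2 share and the Atp5g1 share are lowest and highest in the adult gland.

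At E17.5 the members called lower were mostly complex I genes by symbol. Among the 4 measured ones 3 were, and complex I holds 20 of the 48 measured members. Ndufb9, an accessory subunit, was at 855, 762 and 347 FPKM in the adult gland and at 264, 273 and 297 FPKM at E17.5, a log2 difference of -1.13 ± 0.32 (SE, adjusted p = 0.0161, limma). Uqcrq, a small complex III subunit, was at 588, 551 and 202 FPKM in the adult gland and at 163, 173 and 183 FPKM at E17.5, a difference of -1.22 ± 0.39 (adjusted p = 0.0268). Ndufa1 fell by 1.00 and Ndufv1, which carries the NADH site, by 0.67 on the log2 scale. At E19.5 none of these 4 was called, with Uqcrq at 161, 200.5 and 262 FPKM. In each of them the lowest adult value came from replicate 3, and against that library alone none was called at E17.5.

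The remaining lower calls were of genes below 0.5 times their passage 10 level. Ndufs7, a core iron-sulfur subunit of complex I, was at 5.07, 4.04 and 4.96 FPKM in the adult gland and at 0.449, 0.362 and 0.145 FPKM at E17.5, with 23.5 FPKM in passage 10. Its log2 difference was -2.11 ± 0.14 (SE, adjusted p = 8.1e-06, limma) at E17.5 and -1.94 at E19.5. Like Ndufs7, Cox7b and Ndufa6 had under 0.1 times their passage 10 level and were called lower at both stages, and so were Cox6c, by 0.74 (adjusted p = 0.0130), and Ndufa4, by 0.67 (adjusted p = 0.0446), at E19.5. Whether Cox6c and Ndufa4 differed between the stages was tested, and neither was called. Ndufa7, with 0.344 times that level, was at 36.6, 39.9 and 19.2 FPKM in the adult gland and at 7.20 to 13.6 FPKM in the 6 embryonic libraries, a log2 difference of -1.78 ± 0.27 (adjusted p = 0.000667) at E17.5.

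The calls on both sides depended on adult replicate 3. Without it, 26 members were called lower at E17.5 and 21 at E19.5, or 36.6% and 29.6%, against 29.4% and 28.3% of all genes, while 5 and 10 were called higher, or 7.04% and 14.1%, against 34.0% and 35.2%. With it as the only adult library, 5 were called lower at both stages, or 7.14%, against 23.6% and 22.5% of all genes. In that fit 17 and 32 were called higher, or 24.3% and 45.7%, against 30.3% and 31.3%. Over all 14 alternative settings, the E17.5 calls of Ndufa4l2, Cox6b2, Sdhd, Ndufs7, Ndufa7 and Cox7b persisted, and those 6 together with Cox7a1 did so at E19.5.

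The scale mattered as well. With each library scaled to its own fragments, the median log2 difference of all genes moved from 0.05 to 0.71 at E17.5 and from 0.09 to 0.65 at E19.5, and that of the measured members to 0.92 and 1.05. On that scale 45 and 46 members were called higher, or 65.2% and 66.7%, against 51.7% and 49.3% of all genes, and 3 were called lower at each stage, or 4.35%, against 9.75% and 9.28%. The fragment scale was tested in 13738 genes matched to GENCODE M21, against 18578 on the deposited scale, so the shift mixes scale and gene set. Relative to the median of the genes tested on each scale, the measured members were below it by the deposited scale at E17.5. By the fragment scale they were above it. Both medians are over all genes tested, and protein-coding genes with at least 0.5 times their passage 10 level were not set apart on the fragment scale. Another scale, which gives every library the same median over 44 measured members, shows only how members moved against each other. It called 11 higher and 13 lower at E17.5, or 15.5% and 18.3%, against 25.6% and 23.0% of all genes, among them Ndufa4l2, Cox6b2, Cox7a1 and Sdhd higher and Uqcrq, Ndufb9, Ndufa1 and Ndufv1 lower.

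By complex, the medians of the measured members differed. At E17.5 the median log2 difference was -0.16 for the 20 genes of complex I, -0.27 for the 3 of complex II, -0.56 for the 4 of complex III, 0.26 for the 10 of complex IV and 0.00 for the 11 of complex V. At E19.5 the medians were 0.11, -0.06, -0.39, 0.61 and 0.17 in the same order. Without adult replicate 3 they were -0.43, -0.51, -0.89, 0.13 and -0.26 at E17.5 and -0.15, -0.36, -0.71, 0.53 and -0.08 at E19.5, so the medians of complexes I and V at E19.5 and of complex V at E17.5 changed sign. With and without it, complex IV had the highest median and complex III the lowest at both stages, which share the adult libraries.

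**Figure D4:**
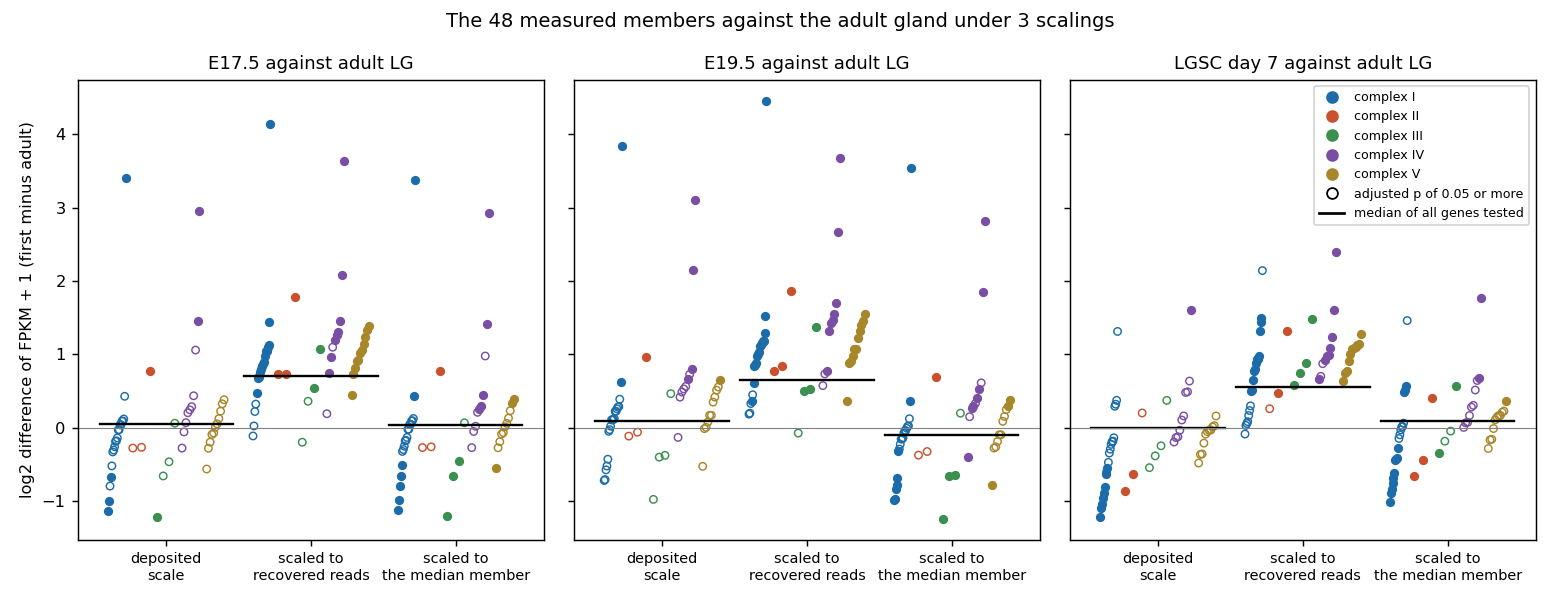
Each point is a measured member, the vertical axis is its log2 difference of FPKM + 1 from the adult gland, and panels are E17.5, E19.5 and LGSC day 7. Within a panel the 3 blocks are the deposited scale, the scale of each library's own fragments and the scale of the median member, filled points have an adjusted p under 0.05, and black lines are medians of all genes tested. Scaling to fragments lifts members and all genes together, while Ndufa4l2, Cox6b2 and Sdhd stay on the upper side in the embryonic panels.

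Between the embryonic stages no member was called, with limma giving 1.11% of all genes higher and 0.624% lower at E19.5. At an unadjusted p under 0.05 there were 4 members of 72, against 15.3% of all genes. The limma-voom test also called none, and a fit to these 2 groups alone called 3, or 4.48%, against 7.71% of all genes. The direction was shared by most members. Of the 48 measured members 45, or 93.8%, were higher at E19.5, with a median log2 difference of 0.26, while 52.5% of all genes were higher, and 60.7% of protein-coding genes with at least 0.5 times their passage 10 level. In 14 members the 3 E19.5 libraries lay above the 3 E17.5 libraries and in none below, against 19.8% and 15.3% of all genes. In all 5 complexes E19.5 replicate 3 had the highest summed level of the 3 E19.5 libraries. Without it 42 of 48 members were higher and the median was 0.12. With libraries scaled to their own fragments 40 of 48 were higher and the median was 0.15, and under the median-member scale the direction is removed by construction.

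Other genes of energy metabolism were read beside the chain. Of the glycolysis list, 8 of 11 genes tested rose and none fell at E17.5, and 8 of 11 at E19.5, with medians of 0.92 and 1.03 on the log2 scale. Of the 16 genes on that list 8, among them Gapdh, Pkm, Tpi1 and Hk2, had under 0.1 times their passage 10 level. So had 2 of 10 pyruvate dehydrogenase genes and 5 of 15 fatty acid oxidation genes listed. Eno1 (enolase) was higher by 2.80 and Ldha (lactate dehydrogenase) by 2.02 at E17.5. Of the pyruvate dehydrogenase list, 1 of 9 rose and 4 fell at E17.5, and 1 rose and 3 fell at E19.5. Pdk1, the hypoxia-responsive kinase of that complex, rose by 1.09 and its relative Pdk2 fell by 1.82 on the log2 scale at E17.5. Of the fatty acid oxidation list, 3 of 10 fell at E17.5, among them the acyl-CoA dehydrogenase genes Acadl and Acadm, and none rose. At E19.5 2 rose, Hadha of the trifunctional protein by 0.54 and the carnitine carrier gene Slc25a20 by 0.53, and 1 fell. Over all genes tested 29.1% rose and 24.9% fell at E17.5, and 30.3% and 23.9% at E19.5. Without adult replicate 3, 11 glycolysis genes rose at E17.5, 5 pyruvate dehydrogenase genes fell, and 7 fatty acid oxidation genes fell and 1 rose.

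Factors that build the chain or switch on its genes were read in the same way. On the lists, 11 of 46 assembly factors and 4 of 17 regulators of mitochondrial biogenesis had under 0.1 times their passage 10 level. Those regulators were the GABP subunit genes Gabpa and Gabpb2, the YY1 gene Yy1, and Tfb2m. Of 31 assembly factor genes tested, 6 rose and 3 fell at E17.5, where 29.1% of all genes rose and 24.9% fell. Leaving out adult replicate 3, 5 rose and 13 fell, against 34.0% and 29.4% of all genes. Those called at E17.5 included Ndufaf2 of complex I, higher by 1.39, and Cox17, a copper chaperone of complex IV, lower by 0.81. Of 14 regulators of mitochondrial biogenesis tested, 5 rose and 2 fell, and 5 and 3 without that library. Tfam, the mitochondrial DNA packaging factor, was higher by 0.87, the NRF1 gene Nrf1 by 0.78 and the GABP subunit gene Gabpb1 by 1.04, while the oestrogen-related receptor genes Esrra and Esrrg were lower by 0.88 and 2.28. The mitochondrially encoded subunits gave 1 rise and 1 fall in 7 tested, and 2 of each without adult replicate 3. Of the mitochondrial list, 9 of 13 had under 0.1 times their passage 10 level, and 5 were listed at 0. With libraries scaled to their own fragments, 11 of 11 glycolysis genes and 22 of 31 assembly factors were called higher at E17.5. Beside these counts, all 6 fibroblast markers were higher and all 5 leukocyte markers tested were lower at E17.5, and the part of cell composition was not tested.

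LGSCs of day 7 were compared with the adult gland from which they derive. Limma called 3 of 71 members higher and 14 lower, or 4.23% and 19.7%, against 20.8% and 26.5% of all genes. Complex I carried 8 of the 10 measured members called lower, with a median of -0.41 over its 20 genes, and complex II the other 2. Complex IV had a median of 0.13 and 1 call, higher. Without adult replicate 3 the medians were -0.66 for complex I, -0.88 for complex II and 0.11 for complex IV. With all adult libraries the members' median was -0.14, beside 0.00 over all genes. Protein-coding genes with at least 0.5 times their passage 10 level had a median of 0.21, and the 45 measured members among them -0.20. Of 4566 such genes, 1619 were called higher and 955 lower.

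Ndufb9 was at 246, 289 and 254 FPKM at day 7 and at 855, 762 and 347 FPKM in the adult gland, a log2 difference of -1.22 ± 0.26 (SE, adjusted p = 0.00106, limma). Ndufc2, another accessory subunit, was at 124, 123 and 127 FPKM against 374, 325 and 157, a difference of -1.09 ± 0.26 (adjusted p = 0.0027). Ndufv1 was at 21.6, 24.2 and 19.8 FPKM against 55.6, 50.3 and 34.3, a difference of -1.04 ± 0.20 (adjusted p = 0.000483). The groups did not overlap in any of these, and the adult library nearest to the spheres was replicate 3 each time.

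In complex II, Sdhb fell by 0.86 ± 0.24 and Sdha by 0.64 ± 0.18 on the log2 scale, while Sdhd, at 150, 136 and 149 FPKM, was higher by 0.20 without being called. Cox6b2 was the 1 measured member called higher, at 16.4, 11.1 and 13.8 FPKM, a log2 difference of 1.61 ± 0.35 (SE, adjusted p = 0.00131, limma). Ndufs8, a core iron-sulfur subunit with 0.246 times its passage 10 level, and Uqcrc2, with under 0.1 times, were also called higher. Ndufa4l2 was at 28.6, 27.1 and 3.98 FPKM and was not called. Among other lists, 9 of 12 glycolysis genes rose and none fell, and 8 of 31 assembly factors fell and none rose. Over all genes 20.8% rose and 26.5% fell. Without adult replicate 3, 9 glycolysis genes rose and 14 assembly factors fell, where 22.2% of all genes rose and 28.0% fell.

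These calls too depended on the adult libraries and the scale. Without adult replicate 3, 27 members were called lower and 2 higher, or 38.0% and 2.82%, against 28.0% and 22.2% of all genes. With it as the only adult library 1 was called lower and 10 higher, or 1.41% and 14.1%, against 19.0% and 15.1%. With each library scaled to its own fragments, the median of all genes tested moved to 0.55, over 13805 genes in place of 18288. On that scale 45 members were called higher and none lower, or 63.4% higher, against 44.5% of all genes higher and 12.7% lower. On the median-member scale 9 were called higher and 15 lower, or 12.7% and 21.1%, against 22% and 22.1% of all genes. Of these lower calls 12 were among the 14 made by the deposited scale, including Ndufb9, Ndufc2, Ndufv1, Sdha and Sdhb. None of the 17 calls persisted over all 14 settings.

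Against E17.5 glands, day 7 LGSCs had 4 of 71 members higher and 10 lower, or 5.63% and 14.1%, with 13.7% and 22.6% of all genes. Of the isoform genes named above, Cox6b2 and Cox7a1 were called lower in the spheres, and Ndufa4l2 was not called. Cox6b2 fell by 1.34 ± 0.35 (SE, adjusted p = 0.00646, limma) and Cox7a1 by 1.29 ± 0.35 (adjusted p = 0.00895) on the log2 scale, with Cox7a1 at 4.24, 3.11 and 5.43 FPKM at day 7. Ndufv3, an accessory flavoprotein subunit, was at 45.1, 48.8 and 40.4 FPKM at day 7 and at 77.2, 85.8 and 81.0 FPKM at E17.5, a fall of 0.85 ± 0.19 (adjusted p = 0.00209). Ndufa12, with 0.173 times its passage 10 level, fell by 0.82.

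Of the 4 measured complex III members 1 was called higher. This was Uqcrc1, a core protein, which was at 128, 191 and 129 FPKM at day 7 and at 82.7, 77.2 and 84.7 FPKM at E17.5, a log2 difference of 0.84 ± 0.25 (SE, adjusted p = 0.0143, limma). It was not called without day 7 replicate 2. The other members called higher, Ndufs7, Cox7b and Uqcrc2, all had under 0.1 times their passage 10 level. A fit to these 2 groups alone called 8 members higher and 23 lower, or 11.3% and 32.4%, against 18.1% and 29.6% of all genes.

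Across the culture days, the slope of log2(FPKM + 1) per day was tested in 11 LGSC libraries. Limma called 1 of 70 members lower and none higher, where 1.50% of all genes were lower and 0.648% higher. At an unadjusted p under 0.05 there were 22 members, against 19.0% of all genes, and limma-voom called 1 lower and none higher. The 1 call was Atp5g1, which with Atp5g2 and Atp5g3 encodes the ring subunit c of ATP synthase. Its day 5 libraries had 69.4 and 71.8 FPKM and its day 7 libraries 49.2, 60.9 and 55.1. The day 10 libraries had 36.8, 54.9 and 52.5 FPKM and the day 14 libraries 49.0, 29.4 and 29.5.

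The Atp5g1 slope was -0.10 ± 0.02 per day (SE, adjusted p = 0.0462, limma). With the replicate number as a block it was also called, with an adjusted p of 0.0456. It was not called in 12 of 19 alternatives, among them the fit without day 5. Atp5g1 made up 9.60% to 9.77% of the summed level of the 3 ring genes at day 5 and 6.27% to 9.23% at day 14, and 9.77% to 14.2% in the adult gland.

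Of the measured members 44 of 47 had a slope below 0, while 49.9% of all genes had one above 0, and 32.4% of protein-coding genes with at least 0.5 times their passage 10 level. Of 18 tested members with under 0.1 times their passage 10 level, 17 had a slope above 0, so that 48 of all 70 tested members were below 0. The median of the measured members was -0.04 per day, beside 0.00 over all genes and -0.02 over protein-coding genes with at least 0.5 times their passage 10 level, and it was -0.02 with libraries scaled to their own fragments. All 11 measured members of complex V and all 4 of complex III had slopes below 0. Without day 5 the median slope was -0.03, and 8 of 47 slopes were above 0. The day 5 group holds 2 libraries, both with a higher summed level than any day 7 or day 14 library. Against day 7, day 14 gave no call in either direction among the members and 0% among all genes by limma. Same-numbered LGSC libraries had correlated deviations. With the replicate number as a block, limma called 14 genes higher and 9 lower at day 14 and no member. On the culture slope that block gave 330 genes higher and 453 lower, with 1 member lower. For day 14 against day 7 without the block, 4 members of 70 had an unadjusted p under 0.05, against 10.4% of all genes. In that comparison limma-voom called no member.

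The slopes of 3 isoform genes were not called. Cox6b2 had 19.1 and 25.4 FPKM in the day 5 libraries and 32.3, 13.3 and 50.2 in the day 14 libraries. Cox7a1 had 6.15 and 5.24 FPKM in the former and 10.9, 6.30 and 9.45 in the latter. The adjusted p was 0.401 for Cox6b2 and 0.229 for Cox7a1 (limma). Ndufa4l2 varied most, with 22.4 and 26.8 FPKM in the day 5 libraries, 5.37, 57.0 and 6.44 in those of day 10, and 3.89, 215 and 102 in those of day 14, with an adjusted p of 0.678 for its slope. The coefficient of variation of Ndufa4l2 between replicates was 69.4% at day 7, 129% at day 10 and 98.8% at day 14.

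**Figure D5:**
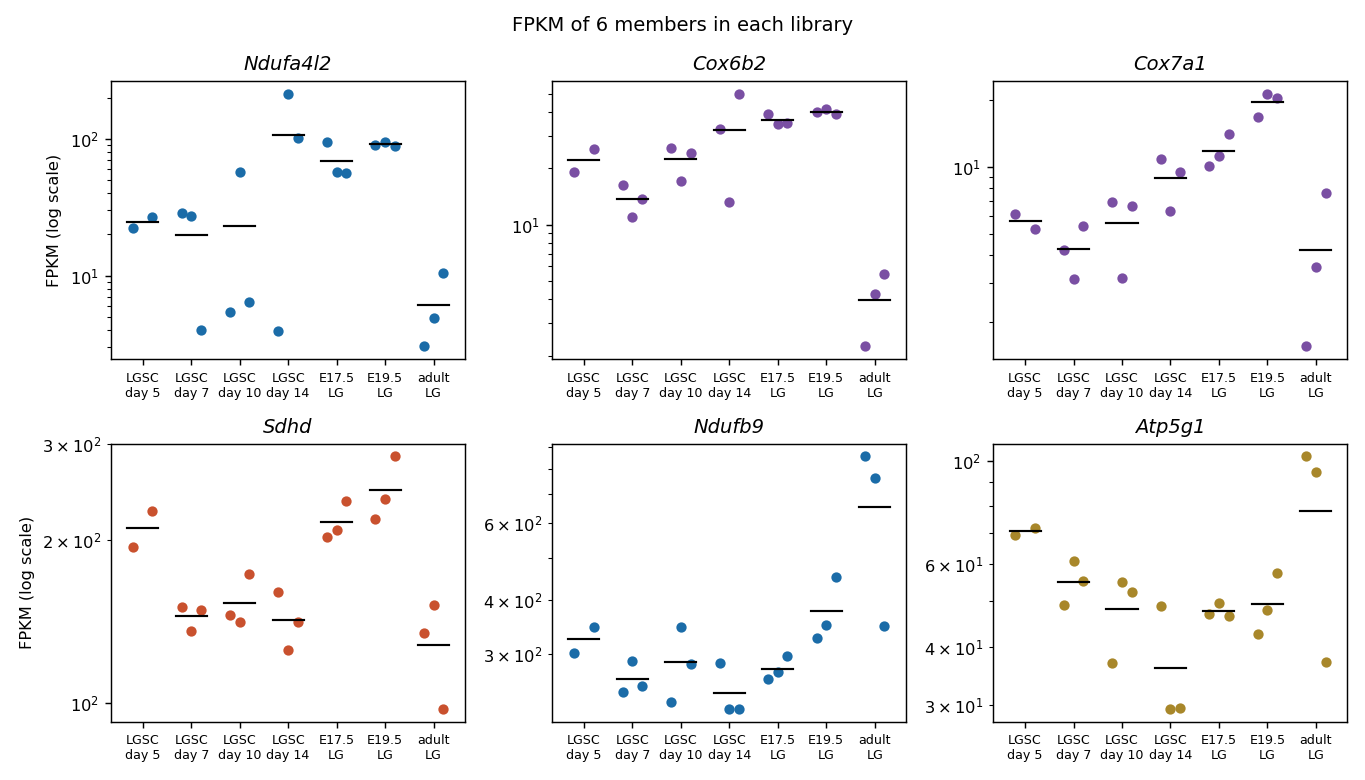
Each point is one library, the vertical axis is FPKM on a log scale and bars are group means, for 6 members. Ndufa4l2, Cox6b2 and Cox7a1 are low in the adult gland, Ndufb9 is highest in adult replicates 1 and 2, and Ndufa4l2 spreads widely among LGSC libraries of one day.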

How the data were processed

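Per the labels, RNA libraries were made with a NEBNext Ultra kit, and strand use in counting is not given in the sources used here, so antisense overlaps cannot be separated. The submitters' processing notes list CASAVA 1.8, HISAT2 2.0.5, featureCounts 1.5.0-p3 and build NCBIM37. The authors deposited FPKM per gene, 1 library per file, and the step from counts to FPKM is not given. Ensembl identifiers were matched to GENCODE M21, and genes sharing reads with near-identical copies are uncertain. Fragments were recovered from FPKM times exon length in units of 1 read, for genes matched to GENCODE M21 only. Of values up to 1000 reads, 92.6% to 93.6% came out whole within 0.01. Tests used limma 3.58.1 (R 4.3.3, trend) on log2(FPKM + 1) for genes averaging 0.5 FPKM or more, with Benjamini-Hochberg adjustment over all of them and two-sided p. The 9 tissue libraries, the 11 LGSC libraries or all 20 entered each fit. Fold changes on this scale understate low genes. Statistics were tested on simulated data; figures used matplotlib 3.10.9.

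Members and lists were chosen with earlier results of these data known. Named were, per comparison, the 4 largest called rises and falls without overlap, the isoform families, complex II, Cyc1, Atp5b, members under 0.5 FPKM, and for each other list up to 4 called genes of largest change; further names (such as Nrf1, and Ndufb9 at E17.5) were chosen after their values were seen, as were the limits of 0.1 and 0.5 times the passage 10 level. Deviations of same-numbered LGSC libraries correlated in every pair (0.26 to 0.72), and those of the glands did not. Differently numbered LGSC libraries gave -0.61 to 0.44. Day 7 replicate 3 followed day 10 replicate 1 (0.44) as closely as day 10 replicate 3 (0.40). Pairing of replicates 1 and 3 by number is thus not settled. The alternatives were another pseudocount, no filter, 2 other scales, limma-voom, a replicate block, fits to 2 groups and each library left out. 3 listed samples were not analysed here.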

Additional observations from a re-analysis of the deposited data

Results flagged for a closer look

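30 members had under 0.1 times their level in the passage 10 library, a sample outside the comparisons. They include 13 of the 38 complex I genes, 1 of 4 in complex II, 5 of 9 in complex III, 5 of 18 in complex IV and 6 of 17 in complex V, and 4 of them were listed at 0 in all 20 libraries. The highest mean among them over the 20 libraries was 5.30 FPKM, for Atp5h. The passage 10 library is 1 sample without a replicate.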

How the results depend on the processing

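The number of members called against the adult gland depended on the library scale and on adult replicate 3. With libraries scaled to their own fragments, the E17.5 calls numbered 45 higher and 3 lower, those of E19.5 46 and 3, and those of day 7 LGSCs 45 and 0. This scale also moved the median of all genes tested by over 0.5, over a smaller set of genes, and the cause of the counts was not tested. On the median-member scale the E17.5 calls were 11 higher and 13 lower, 16 were lower at E19.5, 9 were higher for day 7 against adult, and 12 were higher for day 7 against E17.5. Both this scale and the use of adult replicate 3 alone were added after the data were seen. With that replicate as the only adult library, limma called 17 members up and 5 down for E17.5, 32 up for E19.5, and 10 up and 1 down for day 7, and the lone library was assumed to vary like the other groups.

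Fits to 2 groups alone gave 6 higher at E19.5 against adult, 3 higher at E19.5 against E17.5, 1 higher and 7 lower for day 7 against adult, and 8 higher and 23 lower for day 7 against E17.5, where the cause was not tested. Day 7 against adult also had 1 higher with no filter and 1 higher by limma-voom. The call on the culture slope became 0 with no filter, on the fragment scale, on the median-member scale and without day 5.

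With the replicate number as a block, 6 members were higher at E19.5 against adult in place of 10. The glands' deviations do not bear out such a pairing (same-number correlations of -0.08 to 0.07). On the culture slope, where same-numbered libraries correlated, 1 member was lower. The block moved no other count of called members by over 1.5 times. Over all genes it took the slope calls from 101 higher and 233 lower to 330 and 453, those of day 14 against day 7 from 0 and 0 to 14 and 9, and those of E19.5 against E17.5 from 207 and 116 to 82 and 18.

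Leaving out 1 library at a time gave 4 to 5 higher and 4 to 26 lower at E17.5 against adult, 6 to 10 and 5 to 21 at E19.5 against adult, 2 higher and 11 to 27 lower at day 7 against adult, and 3 to 4 higher and 6 to 8 lower at day 7 against E17.5. The culture slope gave 0 higher and 0 to 2 lower, and day 14 against day 7 and E19.5 against E17.5 gave 0 in each direction. The highest lower counts were those without adult replicate 3.

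Values that changed sign did so mostly on the fragment scale. At E17.5 against adult the log2 differences there were 0.92 for Atp5b, 0.44 for Atp5g1, 0.74 for Cox6a1, 0.96 for Cox8a, 0.68 for Ndufc2, 0.32 for Ndufv1, 0.72 for Sdha, 0.73 for Sdhb and 0.54 for Uqcrc1. At E19.5 they were 0.36 for Atp5g1, 0.77 for Cox6a1, 0.87 for Ndufc2, 0.77 for Sdha, 0.83 for Sdhb and 0.49 for Uqcrc1. At day 7 they were 1.09 for Atp5b, 0.74 for Atp5g1, 1.07 for Atp5g2, 0.92 for Cox7a2, 0.99 for Cox8a, 0.029 for Ndufc2, 0.055 for Ndufv1, 0.30 for Ndufv3, 0.46 for Sdha, 0.26 for Sdhb and 0.74 for Uqcrq. With adult replicate 3 as the only adult library they were 0.67 for Atp5b and 0.22 for Sdha at E17.5, 0.73 for Ndufc2, 0.37 for Sdha and 0.65 for Sdhb at E19.5, and 0.74 for Atp5b and 0.57 for Atp5g2 at day 7. Without adult replicate 3, Atp5b at E19.5 was -0.38.

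Low levels, depth and group size set limits. Of the members, 30 had under 0.1 times their passage 10 level, and 4 of these were listed at 0 in all 20 libraries. Among the measured members, Cox8b and Cox4i2, at 0.638 and 0.556 FPKM, rest on few fragments. The day 5 group holds 2 libraries and the other groups 3, and a missed call does not show that values did not differ.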

Other observations

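Further lists were read between day 7 LGSCs and the adult gland, where 20.8% of all genes rose and 26.5% fell. Of 7 mitochondrially encoded subunit genes tested, 4 fell and none rose by limma. They were mt-Nd1, mt-Nd2, mt-Nd3 and mt-Nd4, all of complex I. Among genes of other complexes, mt-Cytb, mt-Co2, mt-Co3, mt-Atp6 and mt-Atp8 were listed at 0 in all 20 libraries. The last, mt-Co1, had under 0.1 times its passage 10 level, as did mt-Nd1. A fall in genes of the other complexes could thus hardly be seen. mt-Nd2 was lower by 1.56 and mt-Nd4 by 1.51 on the log2 scale. In the adult libraries mt-Nd2 was at 1161, 1692 and 3148 FPKM and mt-Nd4 at 549, 724 and 1632 FPKM, highest in replicate 3 each time. Without that library 2 of the 7 rose and 3 fell, and on the scale of each library's own fragments 2 rose and none fell. Of 13 genes of the tricarboxylic acid cycle, 4 rose and 1 fell, and 4 rose and 6 fell without adult replicate 3. Idh3g, Ogdh, Suclg2 and Fh1 had under 0.1 times their passage 10 level, and Idh3g was the 1 that fell. Cs, the citrate synthase gene, was higher by 1.07, Mdh2 (malate dehydrogenase) by 1.05 and Idh3a (isocitrate dehydrogenase) by 1.03. Of 9 genes of the pyruvate dehydrogenase list, 1 rose and 6 fell, or 1 and 4 of 8 without that library. Among those that fell was Mpc1, a mitochondrial pyruvate carrier gene, lower by 1.00.

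Against E17.5 glands, where 13.7% of all genes rose and 22.6% fell, 5 of 13 genes of the tricarboxylic acid cycle rose in day 7 LGSCs and none fell. Cs rose by 0.49 and Mdh2 by 0.62, and Ogdh, with under 0.1 times its passage 10 level, was also among the 5. Of 14 regulators of mitochondrial biogenesis, 1 rose and 6 fell. The gene that rose was Esrra, by 1.43, and Tfb1m, a mitochondrial ribosomal RNA methyltransferase gene, was lower by 1.09. Fibroblast markers summed to at least 4705 FPKM in the embryonic glands and at most 1.41 FPKM in LGSCs, and the part of cell composition was not tested.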
